A study of Rattus norvegicus with 320 samples.

Results

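The microRNAs (miRNAs) described here come from hairpins inside Htr2c, the X-linked gene of the serotonin 2C receptor. They were taken by name as every row of the count table for rno-miR-448, rno-miR-1912, rno-miR-764, rno-miR-1298, rno-miR-1264 or rno-miR-3552, with or without an arm suffix, and 7 of the 616 rows qualified: rno-miR-3552, rno-miR-764-5p, rno-miR-764-3p, rno-miR-1912-3p, rno-miR-1298, rno-miR-448-5p and rno-miR-448-3p. No row carried the name rno-miR-1264, which is not analysed here. The libraries were small RNA sequencing of whole ground organs from Fischer 344 rats, an inbred strain spelled Fisher 344 in the labels, with both sexes at 2, 6, 21 and 104 weeks of age. The 11 organs were adrenal gland, brain, heart, kidney, lung, liver, skeletal muscle, spleen, thymus, testis (males) and uterus (females), with 4 rats for each organ, sex and age. The study's methods state that 10 organs were taken from each rat, so libraries of different organs share animals. The labels do not say which libraries share one, and the fits between organs treated them as independent. Of 320 libraries, 2 were not used, because the study had removed a week 6 male brain library (replicate 3) and a week 104 female spleen library (replicate 4), which left 31 brain libraries.

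The serotonin 2C receptor is a G protein-coupled receptor found in neurons of many brain regions and, at very high levels, in the epithelium of the choroid plexus, which secretes cerebrospinal fluid. An intronic miRNA is usually cut by the Drosha complex from the transcript of its host gene, exported, and cut again by Dicer into a duplex of a 5p and a 3p strand, of which one is mostly kept in Argonaute. Bases 2 to 8 of the mature strand, the seed, pair with target mRNAs and set most of the targeting.

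All 5 hairpins lay on the plus strand of chromosome X in the rat assembly GRCr8, within the span of Htr2c in RefSeq, and no other gene in that annotation overlapped the interval they occupy. Along the direction of transcription they stood in the order Mir3552 (chrX:115488759-115488863), Mir764 (chrX:115490638-115490745), Mir1912 (chrX:115498019-115498106), Mir1298 (chrX:115556947-115557085) and Mir448 (chrX:115641955-115642066). The first 3 sat close together, with 1774 bases between Mir3552 and Mir764 and 7273 bases between Mir764 and Mir1912. A further 58840 bases separated Mir1912 from Mir1298, and 84869 bases separated Mir1298 from Mir448, so that the hairpins spanned 153308 bases in all. Whether each hairpin is exonic or intronic was not analysed here.

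The mature sequences are shown because the members share a host and not a seed. They were read from the count table, and 6 of the 7 were the same in RefSeq (GRCr8). For rno-miR-764-5p RefSeq gave no mature sequence to compare, and its sequence was found within the Mir764 hairpin. Bases 2 to 8 are in capitals, 5′ to 3′.
rno-miR-3552: aGGCUGCAggcccacuucccu
rno-miR-764-5p: gGUGCUCAcauguccuccucca
rno-miR-764-3p: gAGGAGGCcauaguggcaacugu
rno-miR-1912-3p: cACAGAACaugcagugaga
rno-miR-1298: uUCAUUCGgcuguccagaugua
rno-miR-448-5p: aACAUCCUgcauagugcugcca
rno-miR-448-3p: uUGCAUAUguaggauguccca
rno-miR-153-3p, for comparison: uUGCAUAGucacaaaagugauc
The 7 seeds all differed from each other, and none was found in any other of the 758 mature miRNAs of the table and RefSeq together. With the shorter match of bases 2 to 7, rno-miR-448-3p shared its seed with rno-miR-153-3p, a miRNA that is abundant in brain and is printed last. In brain, rno-miR-153-3p had a mean level of 1785 CPM (counts per 1e6 counts of the library) ± 372 (SD, 31 libraries), against 196 CPM for rno-miR-448-3p. The strand of rno-miR-1298 and rno-miR-3552, whose names give none, was the 5p arm.

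Total counts per kept library were 315550 to 10571766, and 1164462 to 4958803 in brain. Levels are CPM of the library total, and tests are edgeR quasi-likelihood fits on the counts with TMM scaling (trimmed mean of M values, which sets libraries against each other so that most rows do not move) and Benjamini-Hochberg adjustment over all 616 rows, called at an adjusted p under 0.05. TMM scaling matters here: the median TMM factor was 2.08 in brain and 0.588 to 1.41 in the other organs, so that brain levels on TMM-scaled library sizes were lower than the plain CPM (302 against 635 CPM for rno-miR-1298). The p-values measure the spread between these libraries. One kept library stood far from its organ in the members. The skeletal muscle library of female replicate 2 at week 6 held 194 counts of rno-miR-1298, where the other muscle libraries had at most 6.57 CPM, so each result that rests on it is also given without it.

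In brain, every member was present in all 31 libraries, but at very different levels. rno-miR-1298 had the highest level, 635 CPM ± 154 (SD, n = 31), with a lowest library of 292, a median of 608 and a highest of 1006. rno-miR-448-3p, the main strand of its hairpin, followed at 196 CPM ± 61.3, from 102 through a median of 181 to 382. These 2 distributions touched only in the 292 to 382 CPM range, and within every brain library rno-miR-1298 had the higher count, 2.36 to 4.30 times that of rno-miR-448-3p.

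The other members were much lower. rno-miR-764-3p averaged 43.96 CPM ± 7.28, rno-miR-3552 15.9 CPM ± 5.099, rno-miR-1912-3p 11.5 CPM ± 3.23, and rno-miR-448-5p 11.3 CPM ± 2.82. rno-miR-1912-3p and rno-miR-448-5p are neighbours in this order that did not differ beyond their spread, and rno-miR-3552 overlapped both. rno-miR-764-5p was the lowest at 3.07 CPM ± 1.55, with 1 to 25 counts per library and a median of 9, so single libraries of it carry large counting error. The mature strands were 19 to 23 bases long and levels were not divided by length. How efficiently each sequence was ligated and amplified was not measured, which limits comparisons between miRNAs.

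**Figure D1:**
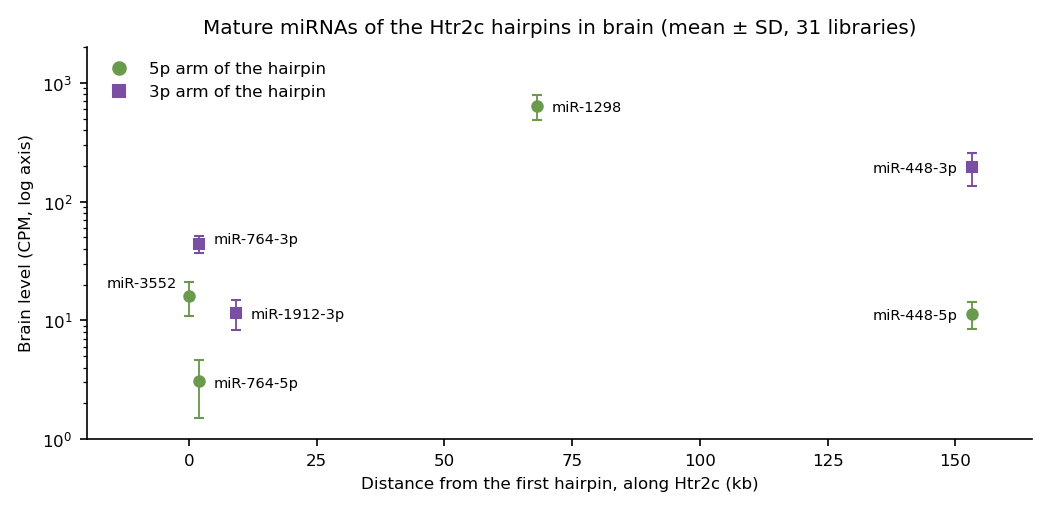
Brain level of each member (CPM, log axis, mean ± SD over 31 libraries) against the distance of its hairpin from the first one (kb); circles are 5p and squares 3p strands. The 3 hairpins at the start gave 3.07 to 43.96 CPM, while rno-miR-1298, rno-miR-448-3p and rno-miR-448-5p further along gave 635, 196 and 11.3 CPM.

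The members were highest in brain. All 7 were called higher in brain than in each of the other 10 organs at each of the 4 ages, 40 comparisons, and all 7 passed 4-fold in all 40. Among all 616 rows, 12.8% were called higher in brain in all 40 comparisons and 7.95% passed 4-fold in all of them. The authors had kept only rows averaging at least 1 count per library. Outside brain, rno-miR-764-5p, rno-miR-448-5p, rno-miR-3552, rno-miR-764-3p and rno-miR-1912-3p held only 25, 31, 43, 45 and 84 counts over 287 libraries. These members passed that filter through brain, so their calls were largely set in advance and the shares of all rows are no like background for them. The share of a member's kept counts that came from the 31 brain libraries was 99.0% for rno-miR-764-3p (95% Wilson interval 98.6 to 99.2), 97.8% for rno-miR-448-3p, 97.3% for rno-miR-3552, 97.2% for rno-miR-448-5p, 93.1% for both rno-miR-1298 and rno-miR-1912-3p, and 92.1% for rno-miR-764-5p (88.6 to 94.6). These intervals cover counting error only.

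The smallest of the 40 differences was log2 6.12 (SE 0.44) for rno-miR-764-3p and log2 5.05 (SE 0.41) for rno-miR-3552. It was log2 4.72 (SE 0.40) for rno-miR-448-3p, against muscle at week 6 (its smallest difference was log2 5.71 without the outlying muscle library), and log2 4.32 (SE 0.56) for rno-miR-448-5p, with edgeR adjusted p of at most 9.5e-09 for both. For rno-miR-1912-3p and rno-miR-1298 the closest organ was lung at week 21, with differences of log2 3.75 (SE 0.32) and 3.12 (SE 0.25). The weakest member was rno-miR-764-5p, at log2 2.05 (SE 0.50) against muscle at week 6, with a largest adjusted p of 0.00404 (a smallest difference of log2 2.61 without the outlying muscle library). With DESeq2 this member was called in 25 of the 40 comparisons, and with the sequencing lane as a covariate in 38.

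Many organ groups held no count of a member, and there the fold is a lower bound set at 3 counts over the pooled group. rno-miR-764-5p had no count in 27 of the 40 organ and age groups, with bounds from at least 4.58-fold (testis, week 21) to at least 63.7-fold higher in brain. rno-miR-448-5p had none in 21 groups (at least 15.3-fold to at least 115-fold higher in brain), and rno-miR-764-3p none in 18 (at least 96.4-fold to at least 556-fold higher). rno-miR-1298 had counts in every group. Its smallest pooled ratio of brain to another organ was 16.5 (95% interval 15.6 to 17.5, counting error only), against lung at week 21, where 1224 counts were found in 8 lung libraries.

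**Figure D2:**
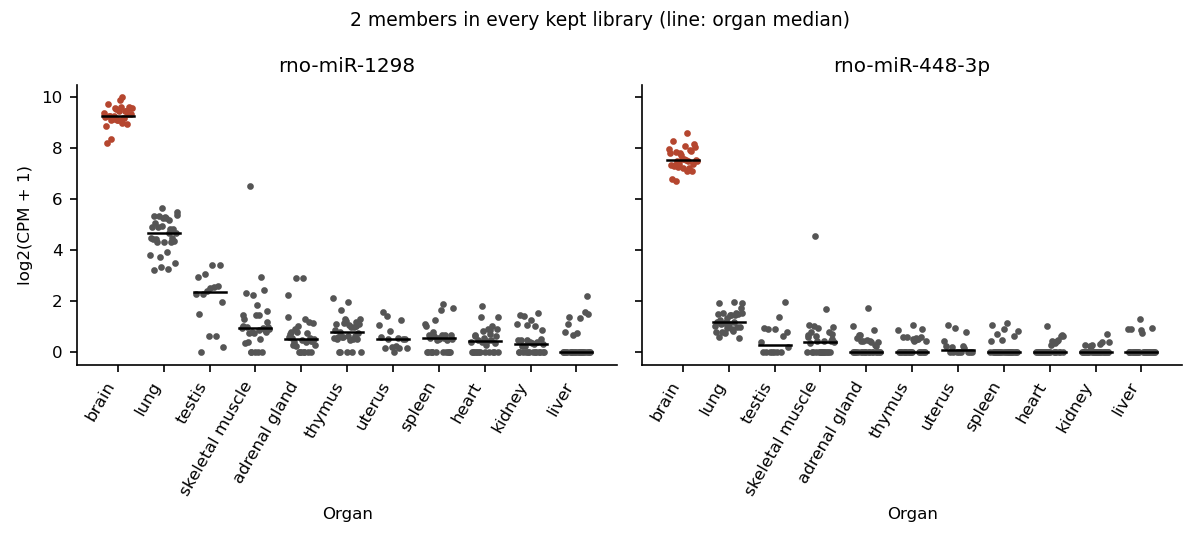
log2(CPM + 1) of rno-miR-1298 (left) and rno-miR-448-3p (right) in each kept library, by organ, with a line at the organ median. Brain libraries stand above every other library, lung has the second highest median for both, and a single muscle library lies far above the other muscle libraries.

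Lung was the second organ for rno-miR-1298. All 32 lung libraries held it, at a lowest of 8.23, a median of 24.4 and a highest of 48.3 CPM, and the lung mean of 25.3 CPM was 3.99% of the brain mean. In testis the mean was 4.06 CPM ± 3.07 (n = 16), and in the remaining organs other than muscle it was 0.421 to 0.956 CPM. Muscle averaged 4.10 CPM ± 15.6, a spread set by its one outlying library. rno-miR-448-3p was also found in all 32 lung libraries, at 1.40 CPM ± 0.650, only 0.712% of its brain mean. rno-miR-1912-3p had at least 1 count in 26 of 32 lung libraries but never more than 5. rno-miR-764-3p in lung was at 0.223% of brain and rno-miR-3552 at 0.456%, each with at most 3 counts in a library.

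A comparison of lung with the 9 organs other than brain was added after these counts had been seen. rno-miR-1298 was called higher in lung in all 36 comparisons of organ and age, a result that 0.487% of all rows shared. The smallest difference was log2 0.96 against muscle at week 6 (largest edgeR adjusted p = 0.0392), and it was log2 1.94 without the outlying muscle library (5.5e-07). With DESeq2, and without replicate 1, 3 or 4, the count was 35 of 36. rno-miR-448-3p was called higher in lung in 27 of 36 comparisons and rno-miR-1912-3p in 13, or 29 and 14 without the outlying muscle library. With DESeq2 the counts were 23 and 6, and without replicate 3 they were 20 and 8. In both of these settings rno-miR-448-3p was also called lower in 1 comparison. The share of all rows called in as many comparisons was not computed. The 2 members were in different proportion in the 2 organs: rno-miR-1298 was 17.3 times rno-miR-448-3p in the median lung library (7.17 to 53.0) and 3.44 times in the median brain library, and the ranges of the libraries did not overlap. Markers of nervous tissue were low in lung. The 9 listed markers ranged there from 0.0754% of the brain mean for rno-miR-124-3p, the neuronal miRNA, to 3.21% for rno-miR-338-3p. Among the others, rno-miR-128-3p was at 0.783%. The 9-member nervous list summed to a median of 425 CPM in lung against 98926 CPM in brain, with 1002 CPM in muscle and 5102 CPM in thymus. In lung, muscle and thymus most of the sum was rno-miR-128-3p, with means of 238, 799 and 4816 CPM. The means of rno-miR-124-3p there were 8.16, 27.9 and 10.1 CPM.

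The outlying muscle library did not carry all members in brain proportions. Its rno-miR-1298 level of 89.1 CPM was 12.8% of the week 6 brain mean and its 22.05 CPM of rno-miR-448-3p were 10.2%. From few counts, rno-miR-1912-3p was at 13.7% (4 counts) and rno-miR-764-5p at 33.2% (2 counts). The members rno-miR-764-3p, rno-miR-3552 and rno-miR-448-5p were listed at 0 counts. rno-miR-124-3p and rno-miR-9a-5p, both neuronal, were at 0.107% and 0.110% of week 6 brain in that library. Other markers of the nervous list were higher, up to 10.7% for rno-miR-338-3p, with rno-miR-128-3p at 2.67% and rno-miR-138-5p at 1.89%. The rno-miR-204-5p of that library, abundant in choroid plexus and some other epithelia, was at 1145 CPM, above the highest other muscle library at 614 CPM. All other markers of the choroid plexus and ciliated list were below the highest other muscle library. Among them, rno-miR-34c-5p was at 101 CPM (highest other 333) and rno-miR-211-5p at 5.51 CPM (highest other 7.08). Muscle markers summed to 156458 CPM, within the range of the other muscle libraries. In the study's sample table this library and the brain library of the same sex, age and number carry each other's lane names. Its part in these values was not tested.

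Lists of markers were counted in the same way. Of the 9 nervous tissue markers, 8 were called higher in brain in all 40 comparisons and 5 passed 4-fold in all. Of 9 intronic miRNAs with other neuronally expressed host genes, 5 were higher in all 40 and 3 passed 4-fold. The nervous and intronic lists share rno-miR-128-3p and rno-miR-338-3p, so their counts are not independent. None of the 7 choroid plexus and ciliated cell markers was higher in brain throughout, and none of the 4 red cell, 3 striated muscle and 1 liver markers. The 7 choroid plexus and ciliated markers were present in brain, at a summed 7381 to 11995 CPM per library, most of it rno-miR-204-5p (mean 8078 CPM). Fewer cells of a type and less RNA per cell cannot be told apart in ground whole organs.

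Across the 44 groups of organ and age, 6 of the 7 members had rno-miR-124-5p as the row most like them, followed by rno-miR-153-5p and rno-miR-219a-2-3p. The Pearson correlation of mean log2(CPM + 1) with rno-miR-124-5p was 0.994 for rno-miR-764-3p and 0.984 for rno-miR-448-3p. rno-miR-1298 differed in its closest rows, which were rno-miR-92b-3p (0.917), rno-miR-879-3p (0.912) and rno-miR-551b-3p (0.902), with rno-miR-124-5p next at 0.884. Correlations of this kind mostly state that a row is high in the 4 brain groups, and the rank-based version named largely other rows (4 of 35 shared). Among the 31 brain libraries, which share depth and composition within a library, rno-miR-1298 and rno-miR-448-3p went together at 0.841. The other pairs of members ranged from -0.02 to 0.470, and the strands of miR-764 stood at -0.02. Outside the members, the closest row to rno-miR-448-3p in brain was rno-miR-181a-1-3p (0.862) and the closest to rno-miR-1298 was rno-miR-148a-5p (0.742).

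The nearest known X-linked miRNAs with RefSeq positions were not highest in brain. Of the 10 known rows nearest to Htr2c on the chromosome, from rno-miR-652-3p at 4.31 Mb to rno-miR-450a-3p at 22.0 Mb, 0 had their highest mean in brain and none was higher in brain in more than 8 of the 40 comparisons. These rows are not separate places. Both strands of miR-652 lie at 4.31 Mb, and the rows from rno-miR-363-3p to rno-miR-17-5p all lie between 21.6605 and 21.6613 Mb. rno-miR-652-3p averaged 162 CPM in brain and 331 CPM in spleen, and rno-miR-363-3p 34.1 CPM in brain and 1190 CPM in thymus. The table also holds candidate miRNAs named for chromosome X, and 1 of them, rno_miR_chrX_48159, was called higher in brain in 40 of 40 comparisons, with a smallest difference of log2 4.22. It is named here after its values were seen, and its distance from Htr2c was not computed because the study placed it on another build. Whether it lies within Htr2c, or is the miR-1264 for which no row was found by name, was not tested. Some of the 10 rows, such as rno-miR-92a-3p, also have a copy on another chromosome.

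In brain, age changed 2 of the members by the test, and in opposite directions. Over 4 contrasts, 6 minus 2, 21 minus 6, 104 minus 21 and 104 minus 2 weeks, averaged over the sexes, 3 of 28 member contrasts were called. Among all rows 42.9%, 18.5%, 2.92% and 54.7% were called in these contrasts, taken in that order. Another 2 member contrasts had an unadjusted p under 0.05.

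rno-miR-448-3p fell with age. At week 2 the lowest, median and highest of 8 libraries were 185, 244 and 382 CPM. At week 6 they were 154, 218.4 and 270 CPM (7 libraries), at week 21 135, 170 and 187, and at week 104 102, 145 and 179. Week 104 lay wholly below week 2. On the TMM scale the change from week 2 to week 104 was log2 -0.45 (SE 0.14, edgeR adjusted p = 0.00738), and without replicate 1 in any group it was log2 -0.32 (0.107), the highest adjusted p over 43 alternatives (the lowest was 1.5e-06). In plain CPM, the 9 nervous markers summed to medians of 121882, 100630, 88472 and 84798 at the 4 ages. On the TMM scale, 4 of the 9 were called higher and 3 lower from week 2 to week 104, with a median of log2 0.35. Their part in the fall of rno-miR-448-3p was not tested.

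rno-miR-764-3p rose between weeks 2 and 6. Its lowest, median and highest CPM were 30.7, 40.3 and 46.7 at week 2, 44.9, 52.0 and 60.8 at week 6, 36.7, 42.9 and 49.4 at week 21, and 33.1, 39.5 and 59.3 at week 104. Only 2 of the 8 week 2 libraries reached the lowest week 6 library. The edgeR test gave log2 0.63 (SE 0.11, adjusted p = 2.9e-05) for 6 minus 2 and log2 0.51 (SE 0.11, adjusted p = 2.3e-04) for 104 minus 2. The second call depended on the scaling. With library size only it was log2 0.09 (0.537), since without TMM the median of all rows in brain moved by -0.33 from week 2 to week 104, and by 0.07 with it.

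For the remaining members no age contrast was called with TMM scaling in all kept libraries. rno-miR-1298 had medians of 730, 700, 571 and 556 CPM at the 4 ages, and its TMM-scaled change from week 2 to week 104 was log2 -0.07 (SE 0.17, edgeR adjusted p = 0.767). With library size only it was log2 -0.49 (edgeR adjusted p = 0.00976) and was called. rno-miR-764-5p had medians of 3.97 CPM at week 2 and 1.80 CPM at week 104 (log2 -0.66, SE 0.29, edgeR adjusted p = 0.0569), a difference that passed the threshold in 15 of 42 alternatives. rno-miR-1912-3p, rno-miR-3552 and rno-miR-448-5p had changes from week 2 to week 104 of -0.01, 0.11 and 0.08 on the log2 scale, with edgeR adjusted p of 0.992, 0.688 and 0.791. Without replicate 1, rno-miR-1912-3p and rno-miR-3552 were called higher at week 6 than at week 2 (log2 0.56 and 0.65, edgeR adjusted p = 0.0288 and 0.0320). The brain library with the fewest counts was week 104 female replicate 4 (1164462 counts). The study reported that its share of miRNA reads was far below the brain average. Without this library the same 3 contrasts were called as with it. Over the same contrast, 4 of the 9 nervous markers were called higher and 3 lower, 4 of the 7 choroid plexus and ciliated markers higher and 2 lower, and 6 of the 9 intronic miRNAs of other neuronal genes higher and 1 lower. The medians of these lists were log2 0.35, 0.35 and 0.54, against 0.07 over all rows, with rno-miR-128-3p and rno-miR-338-3p in both the nervous and the intronic list. Of the other lists, 2 of 3 striated muscle markers were called higher, and none of 4 red cell and 1 liver markers was called. Their part in the members' values was not tested.

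**Figure D3:**
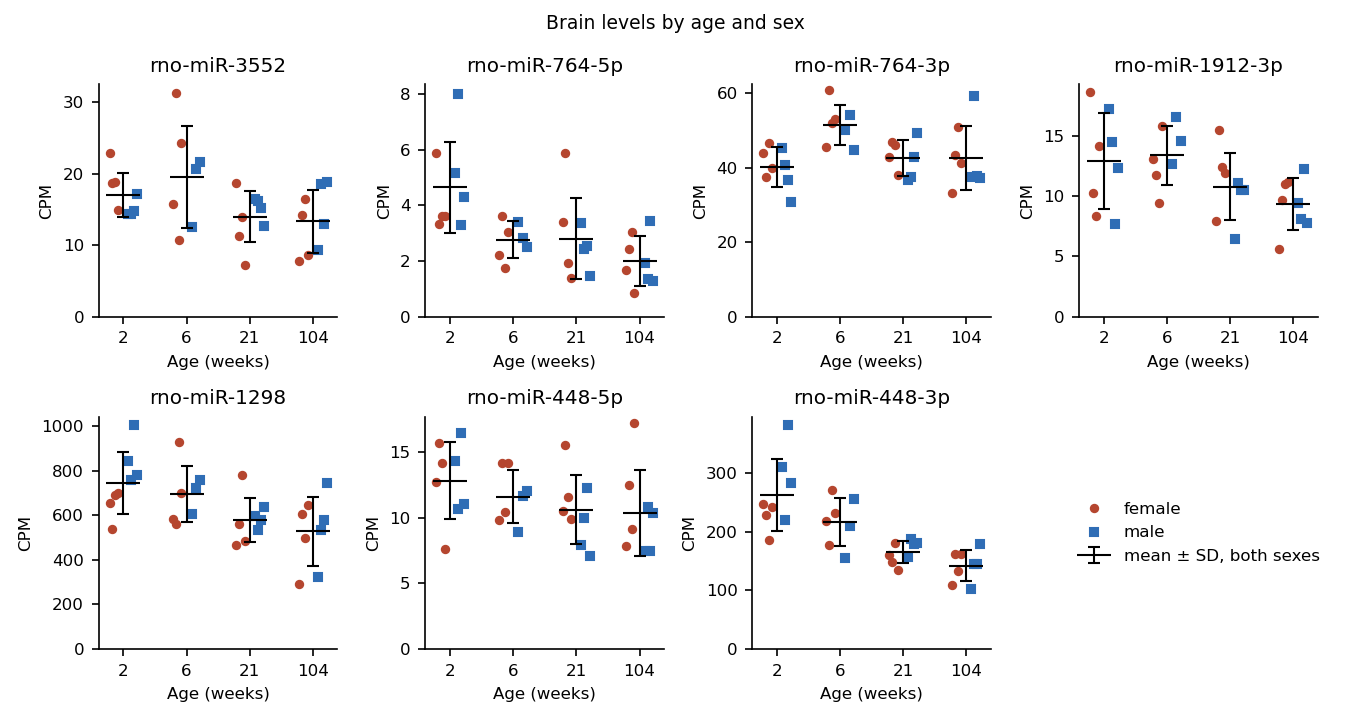
CPM of each member in each brain library by age (circles female, squares male, black bars mean ± SD of both sexes). rno-miR-448-3p declines from a mean of 262 CPM at week 2 to 142 CPM at week 104, and rno-miR-764-3p has its highest mean, 51.5 CPM, at week 6.

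The strands of one hairpin moved apart in brain with age. This comparison of log2(3p count / 5p count) within a library does not depend on the scaling, and it was added after the counts had been seen. For miR-764 the mean log2 ratio was 3.17 ± 0.45 (SD, n = 8) at week 2 and 4.25 ± 0.32 (n = 7) at week 6, and no week 2 library (2.35 to 3.69) reached the lowest week 6 library (3.88). The difference was 1.08 (SE 0.20, two-sided exact permutation p = 3.1e-04, the smallest that this design can give, adjusted p = 0.00249 over 8 tests). At week 104 the mean was 4.52 ± 0.73, a difference from week 2 of 1.35 (SE 0.30, exact permutation p = 7.8e-04, adjusted p = 0.00311). These ratios rest on 1 to 25 counts of rno-miR-764-5p per library.

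For miR-448 the ratio went the other way. The mean log2 ratio of 3p to 5p was 4.36 ± 0.41 at week 2 and 3.81 ± 0.31 at week 104, a difference of -0.55 (SE 0.18, exact permutation p = 0.00886, adjusted p = 0.0236), with overlapping libraries. Without replicate 1, 2 or 4 the adjusted p of that difference was 0.0693 to 0.139. The 5 other tests, between neighbouring ages, had adjusted p of 0.433 or more.

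**Figure D4:**
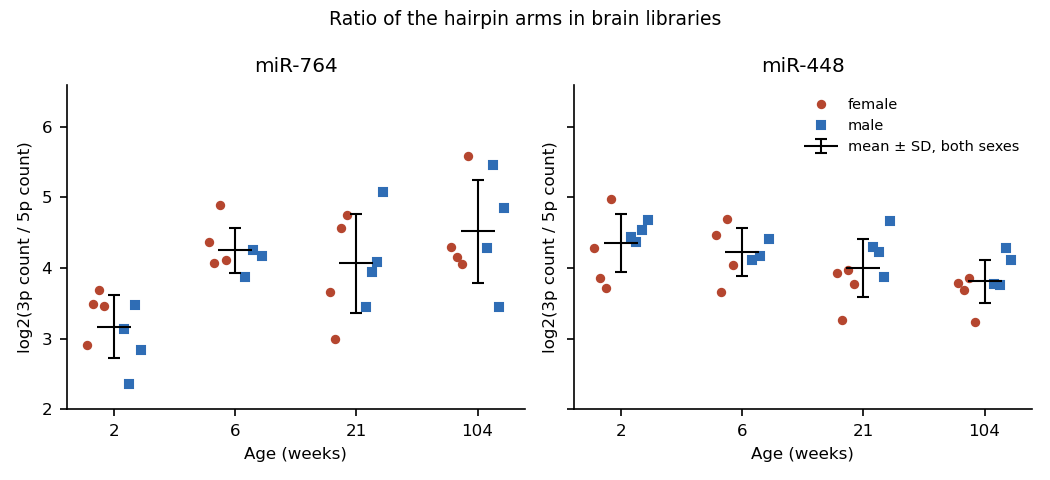
log2 of the 3p count over the 5p count in each brain library by age for miR-764 (left) and miR-448 (right); circles female, squares male, bars mean ± SD. The miR-764 ratio is lower at week 2 (mean 3.17) than at week 6 (4.25) with no overlap, and the miR-448 ratio is 4.36 at week 2 and 3.81 at week 104.

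No sex difference of a member was called in brain. Over the 4 ages and their mean, 0 of 35 female minus male contrasts passed, 0 were under an unadjusted p of 0.05, and DESeq2 also called 0. The largest differences were log2 -0.36 and 0.44. Among all rows 1.59% of the sex contrasts were called. For the change of the sex difference from week 2, 0 of 21 passed, 0 were under an unadjusted p of 0.05 and DESeq2 called 0, against 1.24% of all rows, with differences from log2 -0.79 to 0.59.

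In lung, rno-miR-1298 changed with age more than in brain. The lowest, median and highest CPM were 8.23, 11.6 and 18.8 at week 2, 21.1, 29.3 and 38.5 at week 6, 24.4, 34.3 and 48.3 at week 21, and 12.2, 20.4 and 43.4 at week 104. No week 6 or week 21 library was as low as any week 2 library. The change from week 2 to week 6 was log2 1.41 (SE 0.18, edgeR adjusted p = 1.5e-07), beside 35.6% of all rows called. It was log2 0.41 (SE 0.17, edgeR adjusted p = 0.0812) from week 6 to 21, a contrast that called 22.2% of rows. From week 21 to 104 rno-miR-1298 fell (log2 -0.74, SE 0.17, edgeR adjusted p = 0.00614, 9.25% of rows called), a call lost without replicate 2 or 3 (adjusted p up to 0.181). Week 104 stayed above week 2 by log2 1.09 (SE 0.18, edgeR adjusted p = 4.9e-06, 49.5% of rows called).

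A fit of lung and brain together, added after the counts had been seen, tested whether the organs differed in this change. The rise of rno-miR-1298 from week 2 to 6 was larger in lung than in brain by log2 1.11 (SE 0.26, edgeR adjusted p = 7.8e-04), where 29.5% of rows were called, and from week 2 to 104 by log2 1.00 (SE 0.26, adjusted p = 0.00121), where 39% were. Both differences were called under all 7 alternatives tried for them. rno-miR-448-3p in lung had medians of 0.981, 1.79, 1.31 and 1.03 CPM, which is 4.5 to 6.5 counts. It rose by log2 0.93 (SE 0.30, adjusted p = 0.0150) from week 2 to 6, and the call was lost with DESeq2, with library size only, without replicate 1 or 3, and without week 2 replicate 1 of either sex alone (log2 0.79 without the female and 0.74 without the male, adjusted p = 0.0574 and 0.0700). The ciliated and choroid plexus markers in lung had summed medians of 4455, 5033, 5210 and 5989 CPM at the 4 ages, and the nervous markers 573, 379, 386 and 404 CPM. The first sum differs in make-up between the organs. Its rno-miR-34c-5p averaged 3731 CPM in lung and 1113 CPM in brain, and its rno-miR-204-5p 234 CPM in lung and 8078 CPM in brain.

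The sexes also changed differently in lung. At week 2 the 4 female libraries had 13.0, 18.8, 18.5 and 18.8 CPM of rno-miR-1298 and the 4 male libraries 8.23, 9.07, 8.51 and 10.1, so that every female was above every male. At week 104 the females had 20.5, 12.2, 14.0 and 19.2 CPM and the males 20.3, 36.5, 26.8 and 43.4, with an overlap of a single pair. The female minus male difference changed by log2 -1.94 (SE 0.36, edgeR adjusted p = 0.00359) from week 2 to week 104, beside 1.95% of rows called, and by -1.24 and -1.16 from week 2 to weeks 6 and 21 (adjusted p = 0.122 and 0.0909). The week 104 call was lost without replicate 2 (log2 -1.51, 0.101) or 3 (-1.92, 0.0540), and without any one of 3 week 2 libraries, female replicate 4 (-1.76, 0.0590), male replicate 1 (-1.76, 0.0514) and male replicate 2 (-1.81, 0.0521). This comparison was made after the counts had been seen.

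**Figure D5:**
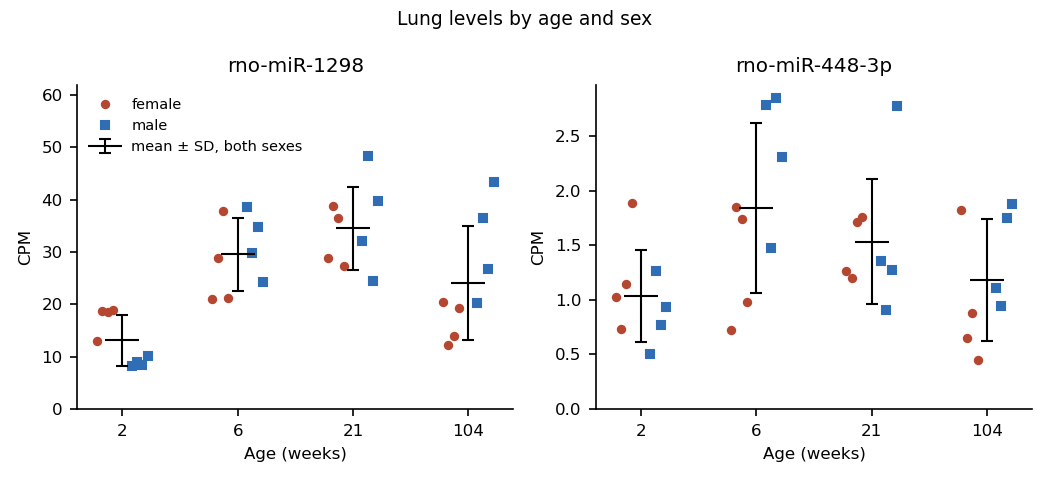
CPM of rno-miR-1298 (left) and rno-miR-448-3p (right) in each lung library by age (circles female, squares male, bars mean ± SD of both sexes). The rno-miR-1298 mean rises from 13.1 CPM at week 2 to 34.5 CPM at week 21, and at week 104 most males lie above the females.

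Outside brain and lung, only rno-miR-1298 reached a mean of 3 counts per library, in testis, adrenal gland, uterus and, through its outlying library, skeletal muscle. In testis its 4 libraries had 3.87, 3.77, 4.71 and 4.97 CPM at week 2, 6.54, 7.17, 9.53 and 9.56 at week 6, 1.83, 4.21, 4.82 and 2.83 at week 21, and 0, 0.533, 0.547 and 0.135 at week 104. All week 104 libraries were below all others. The fall was log2 -2.02 (SE 0.59, edgeR adjusted p = 0.00727) from week 21, where 50.6% of rows were called, and log2 -2.05 (SE 0.50, adjusted p = 0.00192) from week 2, where 55.2% were, the first of these being lost without replicate 4 (0.0540). The miR-34 and miR-449 markers of the ciliated list, which are also abundant in male germ cells, fell alongside with their list from 154692 to 175162 CPM at week 21 to 1149 to 3663 CPM at week 104. Their part in the fall of rno-miR-1298 was not tested.

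In the remaining 3 organs the calls rested on few counts or on single libraries. In adrenal gland, with 0 to 20 counts, rno-miR-1298 fell from week 6 to 21 (log2 -1.86, SE 0.64, edgeR adjusted p = 0.0386, 19.6% of rows called) and from week 2 to 104 (log2 -1.78, SE 0.69, 0.0339, 45% of rows called). Its 3 highest libraries were week 6 females at 3.62, 6.43 and 6.45 CPM, beside the remaining one at 0.439. In uterus, with 0 to 13 counts, it fell from week 21 to 104 (log2 -2.24, SE 0.70, edgeR adjusted p = 0.0372, 13.1% of rows called) and from week 2 to 104 (log2 -2.17, SE 0.71, 0.0166, 44.6% of rows called). Leaving out any of the 4 replicate numbers lost the call for adrenal 21 minus 6 and for uterus 104 minus 21. The adrenal call for 104 minus 2 was lost without replicate 1, 2 or 3 (adjusted p up to 0.183) and the uterus one without replicate 2 or 4 (up to 0.160). In muscle the changes were log2 3.08 (SE 0.70, 4.1e-04, 45.3% of rows called) from week 2 to 6 and log2 -2.43 (SE 0.79, 0.0127, 38% of rows called) from week 6 to 21. The outlying library held 194 of the 284 muscle counts, and without it muscle would have missed the mean of 3 counts set for testing. Without the outlying library the changes were log2 1.54 (0.0188) and log2 -0.88 (0.293). Without replicate 2 in every group they were log2 1.23 (0.105) and log2 -0.37 (0.775).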

How the data were processed

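Ground whole organs (about 30 mg of tissue) gave total RNA for TruSeq small RNA libraries, which carry no molecular identifiers. The authors trimmed reads with fastp 0.23.2, kept 16 to 35 bases and aligned them with Bowtie 1.3.1 (fewer than 2 mismatches) to miRBase. The deposited values are raw counts per mature miRNA. Rows averaging under 1 count per library had been removed by the authors, so rarer neighbours of these hairpins may be missing. All columns were matched to samples by name, and 0 were unmatched. CPM used column totals. How reads that fit several miRNAs were counted is not given in the sources used here.

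Counts of all 616 rows were fitted with edgeR 4.0.16 (quasi-likelihood, TMM, R 4.3.3), in 1 fit per age for organs and 1 fit per organ for age and sex, with Benjamini-Hochberg adjustment per contrast. DESeq2 1.42.0, other scalings, count filters, sequencing lane (from the study's sample table), sex, a replicate block and left-out libraries were alternatives. Arm ratios were tested by exact permutation in SciPy 1.17.1. Pooled ratios and Wilson intervals (95%) cover counting error only, and groups at 0 were set to 3 counts. The scripts were tested on simulated data.

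The rows named were the members, the 5 rows (mean of at least 10 counts) with the highest Pearson correlation of log2(CPM + 1) over the 44 organ and age groups and over brain libraries, the 10 nearest X-linked rows, marker lists, and rows sharing bases 2 to 8. The members and lists were chosen with earlier results of these data known. Replicate numbers were not taken as pairing, since, although organs share rats, no source used here says that a number marks one rat. Deviations of same-numbered libraries were weakly correlated on average (mean 0.0226 over 278 organ pairs with brain and 0.0843 over 45 pairs of brain ages). The correlation was above 0.1 in 74 and 21 of these pairs. For lung with brain the mean was 0.0661, against -0.0223 for other numbers. These values do not decide whether a number marks one rat.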

Additional observations from a re-analysis of the deposited data

Results flagged for a closer look

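In 7 of 89 groups of 4 or more libraries, a single library stood outside the others by Dixon's criterion, where chance flags about 1 in 20 groups (4.45 of 89). In brain these were rno-miR-3552 in male replicate 4 at week 2 (17.2 CPM, others 14.3 to 14.8), rno-miR-764-5p in female replicate 1 at week 2 (5.87 CPM, others 3.32 to 3.63), rno-miR-764-3p in male replicate 2 at week 104 (59.3 CPM, others 37.3 to 37.8) and rno-miR-1912-3p in male replicate 1 at week 21 (6.42 CPM, others 10.5 to 11.1). For rno-miR-1298 they were lung female replicate 1 at week 2 (13.0 CPM, others 18.5 to 18.8), skeletal muscle female replicate 2 at week 6 (89.1 CPM, others 1.69 to 4.34) and skeletal muscle male replicate 3 at week 21 (6.57 CPM from 6 counts, others 0.647 to 0.975).

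Tests of a difference between organs or sexes passed for 4 changes. Those with lung covered 4 age contrasts against brain for the 7 members. They also covered 3 sex by age contrasts within lung for rno-miR-1298 and rno-miR-448-3p. For rno-miR-1298 the change with age in lung exceeded that in brain by log2 1.11 (week 2 to 6) and 1.00 (week 2 to 104). For rno-miR-448-3p, with 2 to 17 counts per lung library, the excess was log2 0.81 (week 2 to 6, edgeR adjusted p = 0.0409). Among all rows 29.5% (week 2 to 6) and 39% (week 2 to 104) were called. The call for the rise of rno-miR-448-3p within lung was lost in 6 of 39 alternatives. The female minus male difference of rno-miR-1298 in lung changed by log2 -1.94 from week 2 to 104, beside 1.95% of rows called. That call was lost in 5 of 38 alternatives.

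The spleen library that the study removed (week 104 female replicate 4) held 458 counts of rno-miR-1298 (53.2 CPM) and 155 of rno-miR-448-3p (18.0 CPM). The 3 kept spleen libraries of that group had 0, 1.35 and 2.66 CPM of rno-miR-1298. The removed library summed to 10107 CPM over the nervous markers and 12107 CPM over the striated muscle markers, where kept spleen libraries reached at most 2004 and 366 CPM.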

How the results depend on the processing

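No result tried reversed its direction. The count of 7 members higher in brain in all 40 comparisons, and that at 4-fold, became 3 under a mean count of at least 10, a filter only 3 members pass. Leaving out replicates or single libraries gave 7 to 7 members higher and 6 to 7 at 4-fold. The 3 age calls in brain became 6 with library size only (rno-miR-764-3p and rno-miR-764-5p 6 minus 2, rno-miR-448-3p 21 minus 6, and rno-miR-1298, rno-miR-448-3p and rno-miR-764-5p 104 minus 2), and were 3 to 4 with libraries left out. In the other organs 12 age calls became 5 to 11 with libraries left out. For lung against 9 organs, the 1 member higher in all 36 comparisons became 0 with DESeq2 and 0 to 1 with libraries left out. Of 70 likeness rows, 27 were shared with Spearman ranks. Brain levels were lower on TMM-scaled totals (rno-miR-1298 at 302 CPM, rno-miR-764-5p at 1.42 CPM). With the replicate block, 7 members were higher in brain, 3 age calls and 0 sex calls were made in brain, and 10 of 12 calls in other organs passed, the adrenal 21 minus 6 (log2 -1.78, edgeR adjusted p = 0.0608) and uterus 104 minus 21 (log2 -2.11, 0.0595) contrasts missing the threshold. Depth limits rno-miR-764-5p most, with 1 to 25 counts per brain library.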
